A study of Mus musculus with 2 samples.

Results

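The 10 genes described here handle calcium in muscle: the pumps Atp2a1, Atp2a2 and Atp2a3, the release channel Ryr1, the voltage sensor Cacna1s, the store proteins Casq1 and Casq2, the cytosolic buffer Pvalb, and the pump inhibitors Sln and Pln. They were found by gene symbol among the 40879 symbols counted in each of 2 libraries. They were chosen with the read counts of these same libraries in view, Atp2a1 being a gene with many WT reads and none in the other library, so their differences between the libraries are a description and not a test. Intestine of WT mice and of ERAP1+/- mice was compared to ask which transcripts differ when ERAP1, an aminopeptidase that trims peptides for MHC class I, is reduced. Both groups were on the C57BL/6 background, were 8 weeks old at the start of the study and were described as germ-free mice kept in a specific pathogen-free facility. The sample labels name no DSS or sulfasalazine treatment. The ERAP1+/- mice, labelled hetero type, came from the ERAP1 tm1a (EUCOMM)Wtsi allele after a cross with a strain expressing Cre recombinase, which removes exons of Erap1 flanked by loxP sites. The promoter that drives Cre is not given in the sources used here. RNA of 3 mice was pooled for each genotype and sequenced as 1 library, so the mice of a pool cannot be told apart, no difference has a replicate check, and no p-value is given.

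In striated muscle, the voltage sensor in the surface membrane opens the ryanodine receptor of the sarcoplasmic reticulum, calcium flows out and the fiber contracts. SERCA pumps return calcium to the reticulum, where calsequestrin binds it, and the small membrane proteins sarcolipin (Sln) and phospholamban (Pln) slow the pumps. Skeletal fibers, fast and slow, use Ryr1, Cacna1s and Casq1, and fast fibers also use Atp2a1 and parvalbumin (Pvalb). Heart, slow fibers and smooth muscle use Atp2a2, Casq2 and Pln, and Atp2a3 is found in epithelial, blood and endothelial cells.

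In the WT library all 10 genes had reads. In the library labelled ERAP1+/-, 6 of them were close to the limit of detection: Atp2a1 and Casq1 had no read, Pvalb had 1, Cacna1s 7, Ryr1 9 and Sln 10. Together these 6 genes had 510 WT reads and 27 reads in the library labelled ERAP1+/-. Casq2 and Pln were at 49.7% and 60.7% of their WT level, and Atp2a2 and Atp2a3 were at 88.7% and 106%. Three-prime end sequencing counts reads near the end of each polyadenylated transcript, and CPM is the count per 1000000 reads after TMM scaling, which sets the bulk of genes level between libraries. With 8114826 WT reads and 8907515 reads in the library labelled ERAP1+/-, 1 read was worth 0.129 and 0.107 CPM, so that a gene without a read may still have been present at up to 3 reads (0.386 and 0.322 CPM).

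The libraries differed in other ways, and in the pairs of values here and below the WT value stands first. Erap1 itself had 229 WT reads against 2 in the library labelled ERAP1+/-, a level of 0.730% (95% interval 0.0878% to 2.67%), lower than a heterozygous label describes, so the library is named by its label throughout. Reads from the three-prime end lie outside the exons removed and do not check the deletion itself. Xist, transcribed from the inactive X chromosome, had 1635 and 6451 reads, and the Y-linked genes Ddx3y, Eif2s3y, Kdm5d and Uty had 72 to 319 WT reads and 1 to 29 reads in the library labelled ERAP1+/-. Sex of the mice and genotype cannot be told apart here. All 10 markers of intestinal epithelium were detected, with summed levels of 11923 and 9112 CPM. Suprabasal epidermis markers summed to 2498 CPM for WT and to 19.0 CPM in the library labelled ERAP1+/-, and all 8 were more than 2-fold lower there.

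Promoter sequences were looked up because several of the genes differed together, and RefSeq (GRCm38.p6) held an entry for 8 of the 10 genes, all except Atp2a2 and Sln. Each window runs from 250 bases before to 50 bases after an annotated start. Windows were searched on both strands for the E-box CAGCTG, the MCAT element CATTCC, the TATA box TATAAA, the MEF2 motif and the CArG box. The genes without a read in the library labelled ERAP1+/-, Atp2a1 (chr7:126463024-126463323, minus strand) and Casq1 (chr1:172219846-172220145, minus strand), are printed beside Casq2 (chr3:102086165-102086464, plus strand) and Pln (chr10:53337436-53337735, plus strand), which kept many reads. Capitals mark matches to the motifs.
Atp2a1: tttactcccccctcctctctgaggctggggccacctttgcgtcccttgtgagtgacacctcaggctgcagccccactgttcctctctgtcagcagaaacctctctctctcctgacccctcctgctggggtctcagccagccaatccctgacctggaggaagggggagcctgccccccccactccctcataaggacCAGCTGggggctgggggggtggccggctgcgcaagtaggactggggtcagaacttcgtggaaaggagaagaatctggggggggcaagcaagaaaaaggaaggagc
Casq1: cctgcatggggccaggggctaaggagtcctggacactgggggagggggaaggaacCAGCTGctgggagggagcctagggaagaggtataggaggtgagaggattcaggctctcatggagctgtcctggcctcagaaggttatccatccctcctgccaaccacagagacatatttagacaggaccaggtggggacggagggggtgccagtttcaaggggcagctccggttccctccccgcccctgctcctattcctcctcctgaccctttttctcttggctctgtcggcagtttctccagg
Casq2: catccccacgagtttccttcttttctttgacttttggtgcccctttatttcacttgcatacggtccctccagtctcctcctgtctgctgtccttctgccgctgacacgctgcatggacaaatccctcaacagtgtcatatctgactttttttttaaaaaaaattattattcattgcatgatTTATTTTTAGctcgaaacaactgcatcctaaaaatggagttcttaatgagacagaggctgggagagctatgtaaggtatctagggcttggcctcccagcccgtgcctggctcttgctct
Pln: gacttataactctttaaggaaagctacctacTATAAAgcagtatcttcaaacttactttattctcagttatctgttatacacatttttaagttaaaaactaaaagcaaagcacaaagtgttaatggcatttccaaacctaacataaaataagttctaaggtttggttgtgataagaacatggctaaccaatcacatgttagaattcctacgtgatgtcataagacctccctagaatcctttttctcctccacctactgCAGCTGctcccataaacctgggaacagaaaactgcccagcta

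The E-box CAGCTG lay in the windows of Atp2a1, Casq1, Cacna1s and Pln, and 16.3% of all 32851 windows in the table hold it. In Atp2a1 its first base was 55 bases before the start, in Cacna1s 123 and in Casq1 195, whereas in Pln it lay 8 bases after the start. A MEF2 motif was matched in Casq2 and in the window of Pvalb that lies further upstream (3.19% of all windows), an MCAT element in Cacna1s (14.7%), and a TATAAA in Pln (13.6%). No window of these genes matched a CArG box (1.63%). No matches overlapped each other. GC content ran from 36.0% in Pln to 68.3% in Atp2a3, against a median of 52.7% for all windows. The part of these motifs in the levels was not tested.

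**Figure D1:**
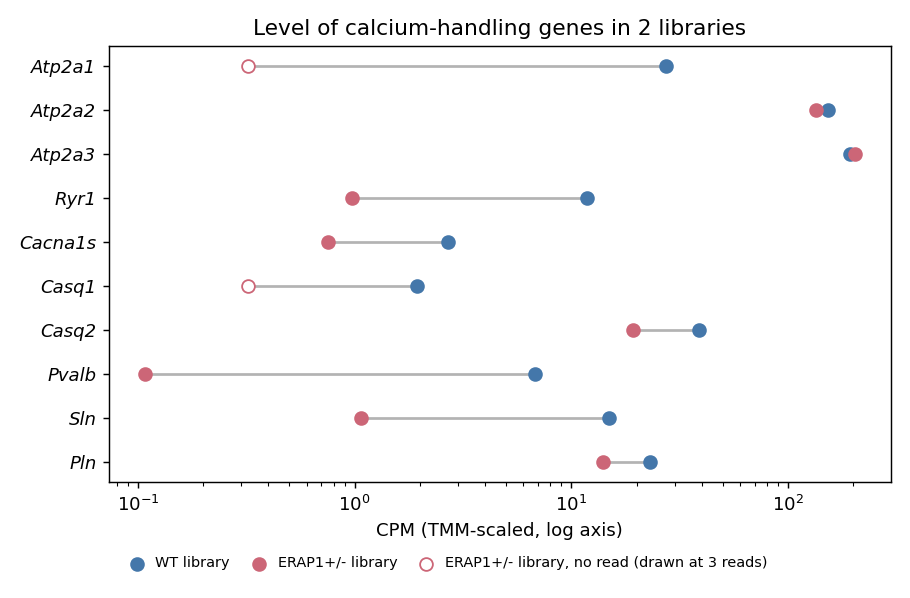
Level of each gene (CPM after TMM scaling, log axis) in the WT library (blue) and the library labelled ERAP1+/- (red), 1 library each. Open circles mark Atp2a1 and Casq1, which had no read and are drawn at an upper limit of 3 reads (0.322 CPM). Atp2a2 and Atp2a3 lie close together in both libraries, and Atp2a1, Ryr1, Pvalb and Sln lie far apart.

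Atp2a1 (SERCA1; minus strand of chromosome 7, 126445858 to 126463108 on GRCm38, GENCODE M21) is the pump of fast skeletal fibers. It had 213 WT reads (27.4 CPM) and 0 in the library labelled ERAP1+/-. With 3 reads put in place of 0 it was 85.0-fold lower there, and the exact 95% limit was 68.5-fold. The interval, here and below, covers counting error only.

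Atp2a2 (SERCA2; minus strand of chromosome 5, 122453513 to 122502225) serves the endoplasmic reticulum of most cells in its 2b form and the reticulum of heart, slow fibers and smooth muscle in its 2a form. Counts per gene do not separate these forms. It had 1184 WT reads (152 CPM) and 1257 reads (135 CPM) in the library labelled ERAP1+/-, a ratio of 0.887 (95% interval 0.818 to 0.961). With TMM scaling this small difference was outside counting error, and without replicates it cannot be set against the spread between mice. Scaled by the total count alone, the log2 difference of Atp2a2 was -0.048 in place of -0.17, so this verdict depends on the scaling.

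Atp2a3 (SERCA3; plus strand of chromosome 11, 72961169 to 72993044) had 1494 WT reads (192 CPM) and 1893 reads (203 CPM) in the library labelled ERAP1+/-. Its ratio with TMM scaling was 1.06 with a 95% interval of 0.988 to 1.13, which includes 1. Scaled by the total count alone, its log2 difference was 0.21 in place of 0.081, above that interval. Of all SERCA reads, Atp2a1 took 7.37% in the WT library (exact 95% interval 6.44% to 8.38%) and 0 of 3150 in the library labelled ERAP1+/-. The exact 95% upper limit of the latter share was 0.117%. Atp2a2 took 41.0% (39.2% to 42.8%) and 39.9% (38.2% to 41.6%), and Atp2a3 took 51.7% (49.8% to 53.5%) and 60.1% (58.4% to 61.8%). These shares use no scaling between libraries, and the intervals overlap for Atp2a2 but not for Atp2a1 or Atp2a3.

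Ryr1 (minus strand of chromosome 7, 29003344 to 29125179), the release channel of skeletal muscle, had 92 WT reads (11.8 CPM) and 9 reads (0.967 CPM) in the library labelled ERAP1+/-. It was 12.2-fold lower (95% interval 6.17 to 27.6). Its relatives Ryr2, the channel of heart and smooth muscle, and Ryr3 had 121 and 112 reads and 41 and 34 reads, and the intervals of their ratios (0.593 to 1.01 and 0.426 to 1.12) include 1. The share of Ryr1 in the ryanodine receptor reads was 36.2% (30.3% to 42.5%) in the WT library and 5.81% (2.69% to 10.7%) in the library labelled ERAP1+/-.

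Cacna1s (plus strand of chromosome 1, 136052750 to 136119822), the voltage sensor that faces Ryr1, had 21 WT reads (2.70 CPM) and 7 reads (0.752 CPM) in the library labelled ERAP1+/-, a ratio of 0.278 (95% interval 0.09999 to 0.680). The interval is wide at so few reads. Cacna1c, the L-type channel of heart and smooth muscle, had 72 and 50 reads, and Cacna1d, an L-type channel of neurons and endocrine cells, had 36 and 84. Among these channels Cacna1s took 16.3% (10.4% to 23.8%) and 4.96% (2.02% to 9.96%), or 26.8% and 8.22% when reads are divided by transcript length.

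The calsequestrins differed from each other. Casq1 (minus strand of chromosome 1, 172209894 to 172219868), a store protein of skeletal fibers, had 15 WT reads (1.93 CPM) and 0 in the library labelled ERAP1+/-. With the same 3 reads it was 5.99-fold lower, and the exact 95% limit was 4.29-fold. Casq2 (plus strand of chromosome 3, 102086415 to 102146514), a store protein of heart, slow fibers and smooth muscle, had 301 reads (38.7 CPM) and 179 (19.2 CPM). It was 2.01-fold lower (95% interval 1.67 to 2.44). Casq2 made up 95.3% of calsequestrin reads in the WT library (92.3% to 97.3%) and all 179 in the library labelled ERAP1+/-. There the exact 95% upper limit of the Casq1 share was 2.04%.

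Parvalbumin, the soluble calcium buffer of fast fibers (Pvalb, minus strand of chromosome 15, 78191114 to 78206400), had 53 WT reads (6.82 CPM) and 1 read (0.107 CPM) in the library labelled ERAP1+/-. The ratio was 0.0158, and the single read gives it a 95% interval of 0.000392 to 0.0917. Pvalb is also expressed in some neurons.

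The pump inhibitors differed in size. Sln (plus strand of chromosome 9, 53850164 to 53854560) had 116 WT reads (14.9 CPM) and 10 reads (1.07 CPM) in the library labelled ERAP1+/-, and was 13.9-fold lower (95% interval 7.29 to 29.7). Pln (plus strand of chromosome 10, 53337667 to 53345987) had 179 reads (23.0 CPM) and 130 (14.0 CPM), and was 1.65-fold lower (95% interval 1.31 to 2.08). Of the reads of both inhibitors, Sln took 39.3% (33.7% to 45.2%) in the WT library and 7.14% (3.48% to 12.7%) in the library labelled ERAP1+/-. Divided by transcript length these shares were 53.4% and 11.99%, so that which inhibitor had the larger WT share depends on that division.

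**Figure D2:**
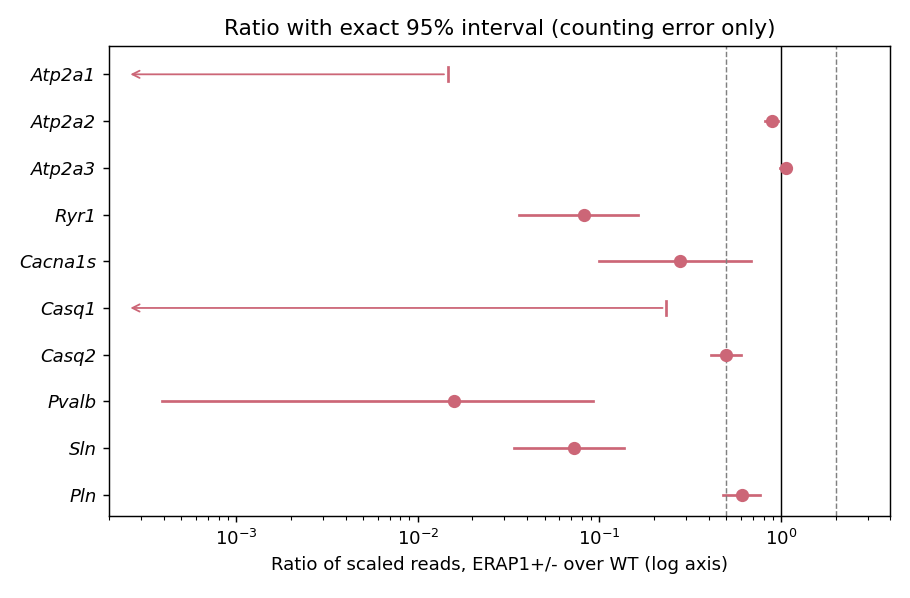
Ratio of scaled reads in the library labelled ERAP1+/- over the WT library (log axis), with exact 95% intervals for counting error. Arrows run down from the upper limit for Atp2a1 (0.0146) and Casq1 (0.233), which had no read, the solid line marks equal levels and the dashed lines mark 2-fold. With TMM scaling, used here, Atp2a3 alone has an interval that includes 1. Scaled by the total count alone, the differences of Atp2a2 and Atp2a3 fell outside the intervals drawn.

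**Figure D3:**
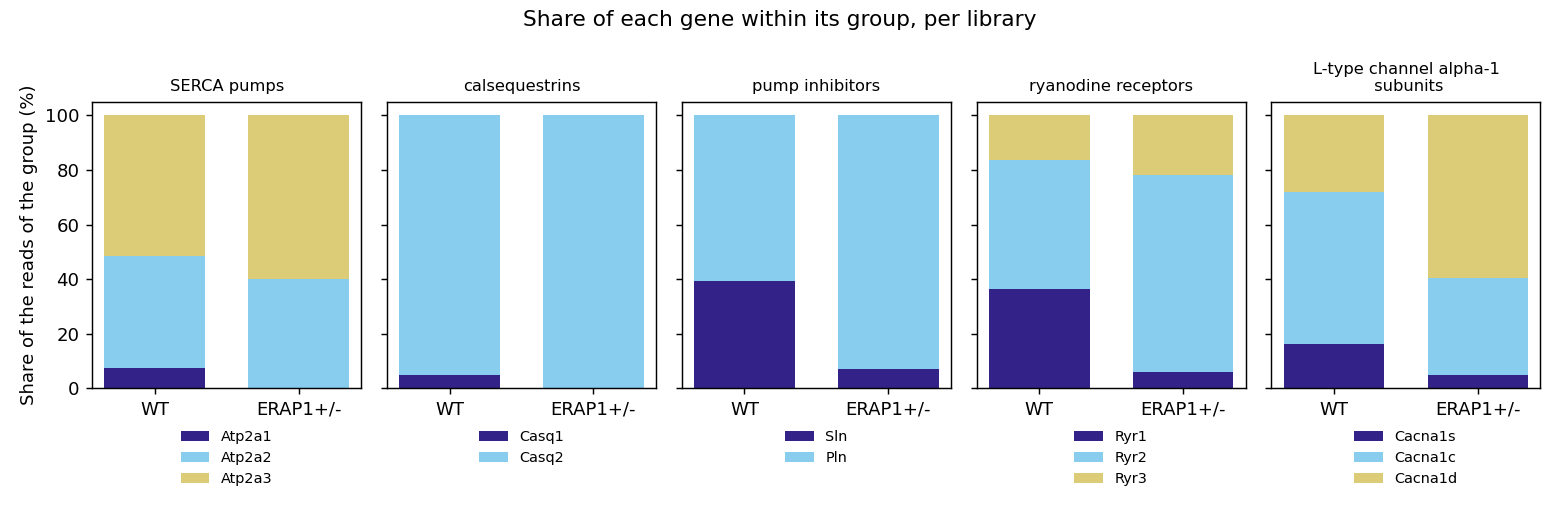
Share of reads (%) that each gene takes within its group of related genes, per library. Atp2a1, Casq1, Sln, Ryr1 and Cacna1s, drawn at the bottom of each bar, take smaller shares in the library labelled ERAP1+/-, as for Ryr1 with 36.2% and 5.81%.

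Read counts were also ordered within each library. From most to fewest, the WT library had Atp2a3, Atp2a2, Casq2, Atp2a1, Pln, Sln, Ryr1, Pvalb, Cacna1s and Casq1. By the exact interval of the ratio of reads, the neighbors Atp2a1 and Pln, Sln and Ryr1, and Cacna1s and Casq1 did not differ beyond counting error, and the other neighbors did. In the library labelled ERAP1+/- the order was Atp2a3, Atp2a2, Casq2, Pln, Sln, Ryr1, Cacna1s and Pvalb, with Atp2a1 and Casq1 at 0. There the neighbors from Sln down to Atp2a1 did not differ beyond counting error. Reads from three-prime ends are not expected to scale with transcript length. Divided by the longest annotated transcript, as CPM per kilobase, Atp2a3 (41.7 and 44.2), Atp2a2 (26.9 and 23.8) and Casq2 (15.2 and 7.53) were still the 3 highest in both libraries, and Atp2a1 was in place 6 of the WT order in place of 4.

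A difference of more than 2-fold on the log2(CPM + 1) scale, with a value of at least 4 (15 CPM) in 1 or both libraries, was called. Of the 10 genes, 5 passed that level, and 1 of them, Atp2a1 (-4.83), was called lower and none higher. Of all 8013 genes past the level, 3.96% were called lower and 1.39% higher. Scaling by the total count alone gave 3.08% and 2.06%, and it moved the median of these genes by 0.12 on the log2 scale. Casq2 (-0.97) lay just short of 2-fold on this scale, which understates differences of low genes, and Sln (3.99 in the WT library) lay just under the level. With at least 10 reads in 1 or both libraries as the only filter, all 10 genes were counted and 6 were more than 2-fold lower, namely Atp2a1, Ryr1, Casq1, Cacna1s, Pvalb and Sln. The share of all 15334 genes with that many reads was 5.92% lower and 3.14% higher. No conclusion was drawn from these counts, because the genes were chosen on the same contrast.

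The genes most like Atp2a1 in both libraries were sought as those with no read in the library labelled ERAP1+/- and a WT count nearest to 213. They were Kprp (217 reads), Dsc1 (220), Serpina3j (203), Lce3c (200), Teddm3 (227), Lce1d (198), Krt34 (190), Lce1a2 (236), Gm41515 (183) and Awat1 (182). With Atp2a1, 24 genes had at least as many WT reads and none in the library labelled ERAP1+/-. In the other direction, 1 gene had no WT read and that many in the library labelled ERAP1+/-.

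A wider list of 62 calcium-handling genes outside the 10 was described by role, and 61 were matched by symbol. Of the 55 with at least 10 reads in a library, 5 were more than 2-fold lower, 1 was higher and 49 were neither, with a median log2 difference of -0.08 (0.042 when scaled by the total count alone), against 0.01 for all genes with that many reads. Of all genes with at least 10 reads, 5.92% were more than 2-fold lower and 3.14% higher. By the stricter level, 1 of 31 was called lower (Trdn) and 1 higher (Calb2), against 3.96% and 1.39% of all genes. Triadin (Trdn), which ties calsequestrin to the ryanodine receptor, had 453 WT reads against 13 in the library labelled ERAP1+/- and was 41.7-fold lower (95% interval 24.1 to 79.0). The other 4 lower genes, named after their values were seen, were Cacng1, a subunit of the skeletal voltage sensor (39 and 2 reads), Jph1, which holds the triad together (93 and 42), Sypl2, a triad protein (16 and 1), and Hrc, a calcium-binding protein of the reticulum (88 and 33).

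In each role the genes with the most reads were also within 2-fold, apart from those named above. Asph, whose products include a partner of triadin, had 551 and 719 reads, and Fkbp1a, which binds ryanodine receptors, had 1610 and 1828. Of the other release channels, Itpr2 and Itpr3, which open to inositol trisphosphate, had 481 and 727 reads and 421 and 511 reads. In the voltage sensor complex, Cacna2d1 had 390 and 474 reads. Calreticulin (Calr), the calcium-binding chaperone of the endoplasmic reticulum, had 3963 and 4348 reads. The micropeptide Mrln, an inhibitor of SERCA pumps, had 8 and 11 reads, and Strit1, which counters phospholamban, had none in either library.

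Cytosolic buffers and surface pumps were described next. Calm2, which encodes a calcium sensor, had 7537 and 7801 reads. Calretinin (Calb2), a buffer found in enteric neurons, had 57 and 154 reads and was 2.26-fold higher (95% interval 1.66 to 3.11). Among pumps and exchangers that remove calcium from the cell, Atp2b1 had 7597 and 5074 reads (ratio 0.558, 0.538 to 0.578) and Atp2b4 1694 and 1644. Stim1 and Stim2, sensors of store filling, had 1148 and 1346 reads and 425 and 495 reads. The secretory pathway pumps Atp2c1 (149 and 255) and Atp2c2 (246 and 397) had ratios of 1.43 and 1.35, and the mitochondrial channel gene Mcu and its regulator Smdt1 had 1987 and 2139 reads and 1032 and 1080 reads.

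**Figure D4:**
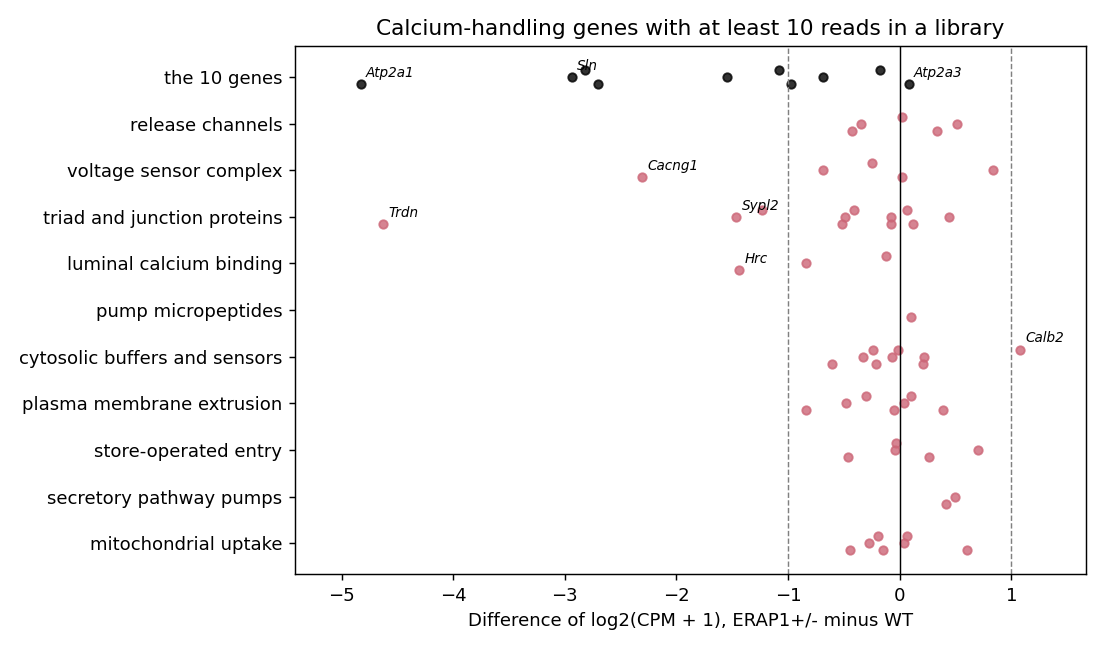
Difference of log2(CPM + 1), library labelled ERAP1+/- minus WT library, for the 10 genes (black) and for the wider list by role (red), 1 point per gene with at least 10 reads in a library. Dashed lines mark 2-fold. Most points of the wider list lie within 2-fold, and Trdn (-4.63) lies near Atp2a1 (-4.83).

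Markers of muscle types were set beside these differences. The 12 fast fiber markers summed to 878 CPM for WT and to 21.9 CPM in the library labelled ERAP1+/-, a 40.1-fold lower sum, and the 11 with at least 10 reads were all more than 2-fold lower. Acta1, skeletal muscle actin, had 1490 and 42 reads and Tnnt3, fast troponin T, had 1113 and 13. Slow fiber markers summed to 342 and 75.9 CPM, and of the 4 with 10 reads, Myl3 (1702 and 8 reads) and Mybpc1 (200 and 3) were more than 2-fold lower. Tnni1 had 713 and 669 reads, while the defining genes Myh7 and Myl2 had no read in either library. Cardiac markers summed to 137 and 30.3 CPM, most of it Tnnt2 (975 and 241 reads) and Actc1 (58 and 12), which were the 2 of 3 with 10 reads that were more than 2-fold lower. Of the defining cardiac genes, Nppb and Mybpc3 had no read in either library and Myh6 had 0 and 2. In the rest of the list, Nppa had 0 and 4 reads, Tnni3 2 and 6, Myl7 7 and 1, and Myl4 20 and 16.

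Smooth muscle markers were abundant in both libraries, at 11566 and 5921 CPM. All 10 were below the WT level, with a median log2 difference of -0.91, and 3 (Tagln, Myh11 and Mylk) were more than 2-fold lower. Tagln, a smooth muscle actin-binding protein, had 18546 and 9767 reads, and Acta2, smooth muscle actin, had 18222 and 12927. Per 1000 reads of the smooth muscle list, Casq2 had 3.35 WT reads and 3.25 reads in the library labelled ERAP1+/-, a ratio of 0.970 (95% interval 0.802 to 1.17). Pln had 1.99 and 2.36, a ratio of 1.18 (0.938 to 1.49). Both intervals include 1. On the same base Atp2a1 stayed at 2.37 and 0, Ryr1 had 1.02 and 0.163 and Sln 1.29 and 0.182, and the intervals of Ryr1 (0.0707 to 0.316) and Sln (0.0657 to 0.268) lie below 1. The interval of Pvalb (0.000765 to 0.179) and the upper limit of Casq1 (0.455) also lie below 1. The interval of Cacna1s (0.195 to 1.33) includes 1 on this base. Atp2a2 had 13.2 and 22.8 (ratio 1.73, 1.60 to 1.88) and Atp2a3 had 16.6 and 34.4 (2.07, 1.93 to 2.21), both above 1. This base moved the median log2 difference of all genes with 10 reads from 0.01 to 0.88. Fewer cells of a type and less RNA per cell cannot be told apart in these bulk pools, and the part of muscle content in the differences was not tested.

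Per 1000 reads of the fast fiber list the 6 genes near the detection limit were not alike. Pvalb had 7.76 WT reads and 4.90 reads in the library labelled ERAP1+/- (ratio 0.631, 95% interval 0.0157 to 3.67), and the interval includes 1. Ryr1 had 13.5 and 44.1 (3.27, 1.45 to 6.49), Sln had 17.0 and 49.0 (2.88, 1.35 to 5.50) and Cacna1s had 3.08 and 34.3 (11.2, 4.01 to 27.2), all above 1. Atp2a1 had 31.2 and 0, and its upper limit of 0.585 lies below 1, whereas that of Casq1 (2.20 and 0) was 9.33. The list held only 204 reads in the library labelled ERAP1+/-, so these ratios rest on few reads. Of these, Ckm had 75 and Acta1 42. The intervals take the list totals as exact and leave out their counting error. The listed genes also differed unevenly, as with Ckm (9.85-fold lower) and Tnnt3 (102-fold lower). The exact limit of Atp2a1, 68.5-fold, is a minimum without an upper bound and cannot be ranked among these values. Whether these ratios hold on a base of other fast fiber genes was not tested.

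Markers of other cell types were compared as well. Leukocyte markers summed to 30.5 and 52.5 CPM, with 1 of 5, Cd79b (5 and 50 reads), more than 2-fold higher, Ptprc, the pan-leukocyte phosphatase, at 109 and 244 reads and Cd68 at 73 and 86. Endothelial and platelet markers summed to 183 and 148 CPM, with Pf4 at 374 and 415 reads and Ppbp, the 1 of 6 more than 2-fold lower, at 394 and 66. Among 10 epithelial markers Krt20 (5156 and 2674 reads) was more than 2-fold lower, and Lgals4 had 22956 and 27348 reads and Cdh1 18810 and 16678. Among epidermal markers Flg had 7952 and 4 reads and Krt10 3922 and 72. The part of these cell types in the levels of the 10 genes was not tested.

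**Figure D5:**
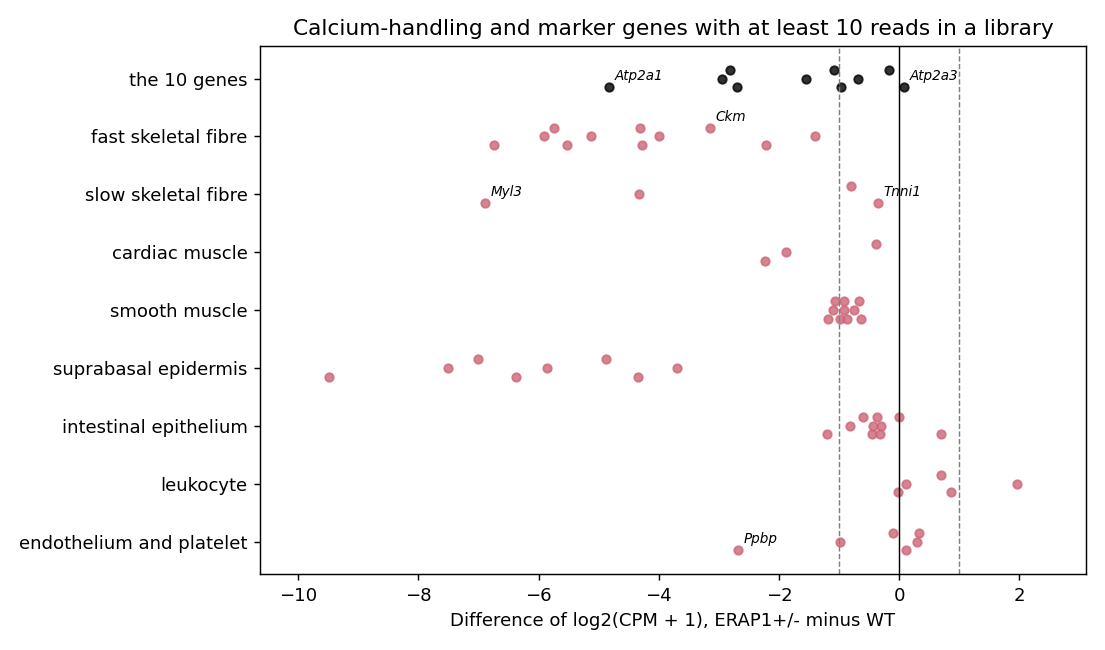
Difference of log2(CPM + 1), library labelled ERAP1+/- minus WT library, for the 10 genes (black) and marker genes of 8 cell types or tissues (red), 1 point per gene with at least 10 reads in a library. Fast fiber and epidermal markers lie left of the 2-fold line at -1, smooth muscle markers lie around their median of -0.91, and epithelial markers lie nearer to 0.

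Overlapping genes limit some of these counts. No 75-base stretch of the transcripts of Atp2a1, Atp2a3, Casq1, Casq2, Ryr1, Cacna1s, Pvalb, Sln or Pln was shared with a transcript of another gene on the same strand, so reads of that length without mismatches separate the paralogs. Atp2a2 shared 136 of 6153 stretches with Gm30970, which had no read in either library. Atp2a1 overlaps Rabep2 on the opposite strand over 3388 bases that include its annotated end, and 15.8% of its 75-base stretches lie in Rabep2 transcripts. Rabep2 had 56 WT reads against 93 in the library labelled ERAP1+/-. How reads of the overlap were assigned between Atp2a1 and Rabep2 was not tested. Pln lies inside Cep85l on the opposite strand, 52.7% of its stretches are shared with Cep85l or Gm47644, and Cep85l had 76 and 95 reads. Cacna1s, with few reads, shared 14.3% of its stretches with Gm37759 on the opposite strand. Smaller shares on that strand were 2.01% for Ryr1, 1.44% for Casq1 and 0.211% for Atp2a2. The library kit keeps the strand, but whether the counting used it is not stated.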

How the data were processed

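Intestinal RNA of 3 mice made up each pool, and a stranded three-prime end kit gave 1 library per genotype. The authors deposited counts, whole reads per gene symbol without normalization. The methods name STAR with HTSeq and also Bowtie2 with RSEM, on GRCm38, and which of them made the counts is not given in the sources used here. Library sizes were scaled with TMM, a trimmed mean of log ratios (edgeR 4.0.16, R 4.3.3), the WT factor being 0.958 and the other 1.04, to give CPM and log2(CPM + 1). The 95% intervals are exact, conditional binomial for ratios and Clopper-Pearson for shares (scipy 1.17.1). Both cover counting error only, and amplified reads are not independent molecules. With 1 library per genotype no edgeR or DESeq2 test could be fitted. The calls and intervals were run on simulated counts that held counting error only, with changes planted in genes well above the level. Calls on low genes and the spread between mice were therefore not checked. DESeq2 1.42.0 size factors, total counts, a pseudocount of 0.1, other filters, a 4-fold threshold and thinning were the alternatives. The 10 genes, the lists and the alternatives were chosen with earlier results of these data known. Genes named were the 10 genes, called genes and the 2 most counted of each role or marker list, and the 10 genes most like Atp2a1. Coordinates and transcript lengths are from GENCODE M21, promoters from RefSeq GRCm38.p6. RT-qPCR, histology and flow cytometry were not analysed here. A gene of the wider list that this rule names is not reported here.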

Additional observations from a re-analysis of the deposited data

How the results depend on the processing

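No paired analysis was possible because the labels give no replicate numbers and a genotype is a single library. After seeing the data, scaling to the smooth muscle list and a count without ribosomal and mitochondrial RNA were added. Of the 10 genes, 2 changed sign, both with scaling to smooth muscle: Atp2a2 (0.79) and Pln (0.23). The difference of Atp2a1 was -8.10 with a pseudocount of 0.1 and -4.98 without mitochondrial and ribosomal RNA. Of the 10 genes, 2 were called lower with that pseudocount or with thinning (Atp2a1 and Casq2) and without those RNAs (Atp2a1 and Sln), where 4.22%, 3.92% and 4.03% of all genes tested were called lower. With no filter or a filter of 10 reads 6 were lower, against 2.33% and 5.92% of all genes. Scaling to smooth muscle raised the median of all genes with 10 reads to 0.88 and called 43.4% of all genes tested higher, among them Atp2a3, the 1 of the 10 genes called higher. In the wider list 5 were lower with either of these filters, 0 were higher with a 4-fold threshold (0.20% of all genes) and 9 with scaling to smooth muscle. The median difference of that list was 0.042 with total counts and 0.81 with scaling to smooth muscle, below the medians of all genes (0.12 and 0.88) under the same scalings. With total counts the log2 ratios of summed levels were -2.05 for slow fiber, -0.84 for smooth muscle, -0.26 for epithelial and -0.18 for endothelial and platelet markers. Divided by transcript length, Atp2a1 took 10.3% of SERCA reads in the WT library, Sln took 53.4% of the inhibitors there in place of 39.3%, and Cacna1s took 26.8% and 8.22% of the L-type channels in place of 16.3% and 4.96%. Depth limits Atp2a1, Ryr1, Casq1, Cacna1s, Pvalb and Sln, each with 10 or fewer reads in the library labelled ERAP1+/-.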
